A study of Mus musculus with 4 samples.

Results

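*Ctcf* and *Ctcfl* are 2 of the 24411 genes listed in each library, taken by their gene names. The pair was chosen on the TPM values of these same libraries, in which *Ctcfl* stood far higher where the label reads *Zfp541* KO, so the difference of either gene between the groups is given as a description, with no test. RNA was measured in GFP-positive germ cells sorted from testis at postnatal day 18. The control group held 2 *Zfp541*+/- libraries and the other group 2 libraries labelled *Zfp541* KO. By the study's methods this allele is a CRISPR/Cas9 deletion from exon 1 to exon 13 of *Zfp541*, a gene for a zinc-finger protein of spermatocytes. All 4 carried a *Rec8* allele tagged with 3xFLAG-HA-p2A-GFP, so that the sort took cells in which the *Rec8* locus was active. One control animal was heterozygous and the other homozygous for this allele, and both animals of the KO group were homozygous. The labels used here do not tie the 2 states to control 1 or control 2, and they name a mixed C57BL/6 and CBA strain, whereas the study's methods name C57BL/6.

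CTCF is a zinc-finger protein that binds DNA at insulators and domain boundaries, where it halts the loop-extruding cohesin ring and holds chromatin loops in place. It is made in nearly all cells. CTCFL, also called BORIS, shares its central zinc-finger array with CTCF but has different ends, and it is normally restricted to male germ cells, mainly late spermatogonia and early spermatocytes, where it occupies part of the CTCF sites. *Ctcf* (ENSMUSG00000005698) lies on the forward strand of chromosome 8 from 105636568 to 105682922, and *Ctcfl* (ENSMUSG00000070495) on the reverse strand of chromosome 2 from 173093609 to 173119525, in the GENCODE annotation of GRCm38, the assembly that UCSC names mm10.

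Because the paralogues share the zinc-finger array, their transcripts were compared at the length of the reads, 75 nt. The main *Ctcf* transcript has 12 exons and 3782 bases, of which 2211 are coding, and that of *Ctcfl* has 11 exons and 3217 bases, of which 1911 are coding. None of the 3143 stretches of 75 bases in the *Ctcfl* transcript occurred in the *Ctcf* transcript on either strand (0 and 0 identical stretches). The 2 most similar stretches of that length, aligned without gaps, are shown because they set the limit on how far reads of one gene could be assigned to the other. They run over the junction of exons 4 and 5 in both genes, at bases 934 to 1008 of the coding sequence of *Ctcf* and 907 to 981 of that of *Ctcfl*, and capitals mark the bases that differ.
Ctcf: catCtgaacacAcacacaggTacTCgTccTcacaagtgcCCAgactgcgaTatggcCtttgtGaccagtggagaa
Ctcfl: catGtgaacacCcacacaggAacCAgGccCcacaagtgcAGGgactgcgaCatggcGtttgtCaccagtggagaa
With the intron between the exons, they cover chr8:105665008-105666714 on the forward strand and chr2:173112322-173113561 on the reverse strand. Of the 75 bases, 62 were identical and 13 differed. The longest run of identical bases between the transcripts was 12 bases, accagtggagaa, the last bases of the stretches above, in exon 5 of both genes.

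Each file gives one TPM value per gene, an abundance which accounts for transcript length and for the size of the library, so levels can be compared between the 2 genes but the depth behind each value is unknown. Genes averaging 1 TPM or more over the 4 libraries were kept, which left 14512 genes, both paralogues among them. Differences are given on the log2(TPM + 1) scale, which understates those of low genes, and were fitted with limma over all 14512 genes. The targeted gene *Zfp541* measured 112 TPM in control 1, 72.2 TPM in control 2, 136 TPM in KO 1 and 151 TPM in KO 2, where KO 1 and KO 2 stand throughout for the libraries labelled *Zfp541* KO. Its transcript was not lower in either KO library, so that in these libraries every direction given here rests on the label alone. The study reported ZFP541 protein as absent from *Zfp541* KO testis by immunoblot and as diminished in stained tubules. Protein was not measured in these libraries. No gene passed an FDR of 0.05 in limma (0% higher and 0% lower), with a smallest adjusted p of 0.31, while 2091 genes had an unadjusted p under 0.05 (10.7% of all genes higher and 3.73% lower). Without the variance trend limma called 0 genes as well, with 1899 at an unadjusted p under 0.05. The median difference over all genes was 0.28 above 0. The controls differed from each other by a median of 0.65 per gene, against 0.16 between the libraries labelled *Zfp541* KO. Nothing in the labels ties the replicates to litters, and 2 libraries against 2 allow no exact permutation p under 0.33.

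*Ctcfl* was low in the controls and several-fold higher in the libraries labelled *Zfp541* KO. It was at 3.75 TPM in control 1, 5.83 TPM in control 2, 33.1 TPM in KO 1 and 25.1 TPM in KO 2. The groups did not overlap, and the lowest value of the KO group lay 19.3 TPM above the highest control, while the controls were 2.08 TPM and the KO libraries 8.03 TPM apart. The group means were 4.79 ± 1.47 TPM (SD, n = 2) and 29.1 ± 5.68 TPM (SD, n = 2), a ratio of 6.08. For single libraries the ratio ran from 4.30, for KO 2 over control 2, to 8.83, for KO 1 over control 1. The log2 difference was 2.39 (standard error 0.38), rank 63 among 14512 genes ordered from the largest increase, and this difference is what led to the choice of the gene. A value at least 2-fold higher was seen in 8.98% of all genes, and one at least 2-fold lower in 5.22%. In both controls and in both KO libraries, *Ctcfl* was not among the most abundant transcripts, at ranks 12337 and 9906 of 24411 in controls 1 and 2 and at ranks 6194 and 7133 in KO 1 and 2.

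*Ctcf* was higher by a smaller factor and from a higher level. It was at 38.5 TPM in control 1, 31.1 TPM in control 2, 58.1 TPM in KO 1 and 55.2 TPM in KO 2. These groups did not overlap either, with 16.7 TPM between the lowest KO library and the highest control, against 7.43 TPM between the controls and 2.87 TPM between the KO libraries. The means were 34.8 ± 5.25 TPM (SD, n = 2) for control and 56.6 ± 2.03 TPM (SD, n = 2) for KO, a ratio of 1.63. The log2 difference was 0.69 (standard error 0.22), at rank 3237 of 14512. Both KO libraries were above both controls in 38.6% of all genes, so the lack of overlap does not set *Ctcf* apart. Median-ratio scaling of the libraries, which brought the median gene to about 0, left *Ctcf* at 0.38 and *Ctcfl* at 2.09. Quantile normalization left them at 0.43 and 2.16.

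The spread between replicates was unlike in the 2 genes. The controls differed in *Ctcfl* by 0.52 on the log2 scale. Of the 500 genes nearest to it in mean log2 level over the 4 libraries, 64.6% differed by more. For *Ctcfl* that mean lies above both controls and below both KO libraries. The KO libraries differed in *Ctcfl* by 0.39, which was exceeded in 19.6% of those 500 genes. For *Ctcf* the gaps were 0.30 between controls and 0.07 between KO libraries, and about 70% of genes of like level had a larger gap (70.0% and 70.6%). *Ctcf* was thus closer between replicates than most genes of its level. Within the KO group *Ctcfl* was less close than most of the genes compared, which were not matched to its level in that group.

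*Ctcfl* made up a larger part of the pair in the KO libraries. *Ctcf* exceeded *Ctcfl* in every library, 10.3 times in control 1, 5.33 times in control 2, 1.75 times in KO 1 and 2.20 times in KO 2. *Ctcfl* made up 8.87% and 15.8% of the summed TPM of both genes in controls 1 and 2, and 36.3% and 31.3% in KO 1 and 2. The mean share was 12.3% ± 4.9 (SD, n = 2) in the controls and 33.8% ± 3.5 (SD, n = 2) in the KO group. The log2 ratio of *Ctcfl* to *Ctcf*, with 1 TPM added to each, differed by 1.70 between the groups, and by 0.82 between the controls. The sum of both genes went from 39.6 ± 3.8 TPM (SD, n = 2) to 85.7 ± 7.7 TPM (SD, n = 2), and *Ctcfl* made up 52.7% of that increase although it was the minor transcript in all libraries.

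**Figure D1:**
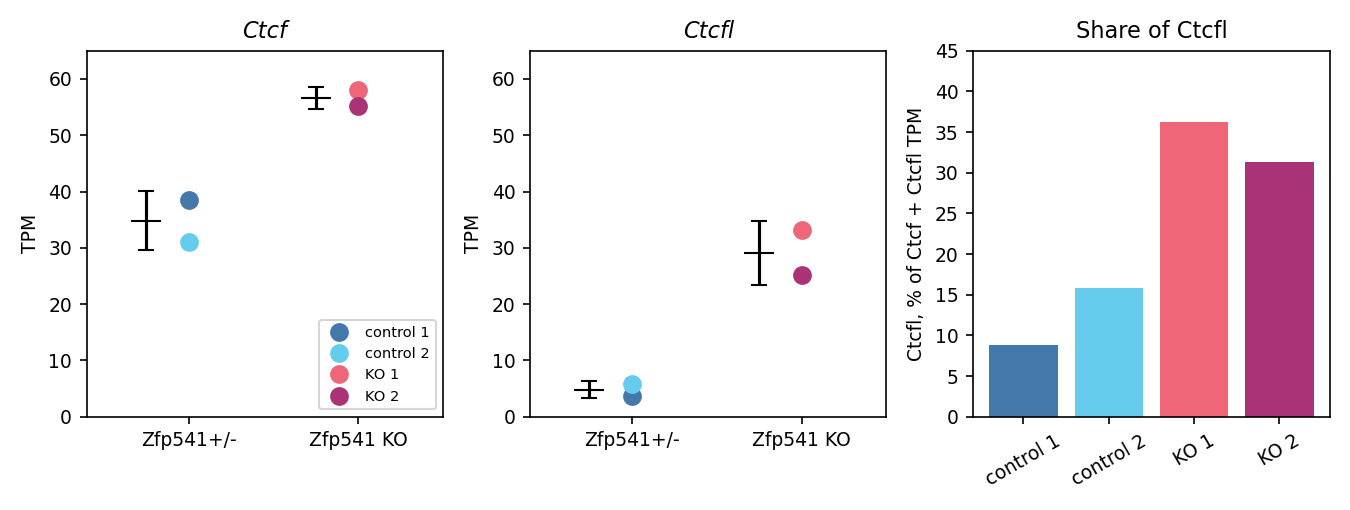
TPM of *Ctcf* and *Ctcfl* in each library (points, with group mean and SD as black bars) and the share of *Ctcfl* in the summed TPM of both (bars, in percent). In both genes the 2 libraries labelled *Zfp541* KO lie above the 2 controls, and the share of *Ctcfl* is 8.87% and 15.8% in the controls and 36.3% and 31.3% in the KO libraries.

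Cohesin, the ring that CTCF halts, also has germline paralogues, and 4 of its germline subunits give a measure of whether other such pairs shifted in the same libraries. SMC1B takes the place of SMC1A in meiotic rings, REC8 and RAD21L that of RAD21, and STAG3 that of STAG1 and STAG2. The log2 ratio of *Smc1b* to *Smc1a* was 3.24 and 3.32 in the controls and 4.11 and 4.37 in the KO libraries, a difference of 0.96 with no overlap. The ratio of *Stag3* to *Stag1*, a pair added after the values were seen, lay in the opposite direction, at 2.06 and 2.42 in the controls and 1.51 and 1.37 in the KO libraries (difference -0.80, with no overlap). The ratios of *Stag3* to *Stag2* (difference -0.22), *Rec8* to *Rad21* (0.23) and *Rad21l* to *Rad21* (0.12) overlapped between the groups. Of these pairs and the pair of *Ctcfl* and *Ctcf*, the last had the largest shift, and the differences between pairs were not tested. That pair was chosen for the difference of *Ctcfl* in these same libraries, so its place follows in part from the choice.

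**Figure D2:**
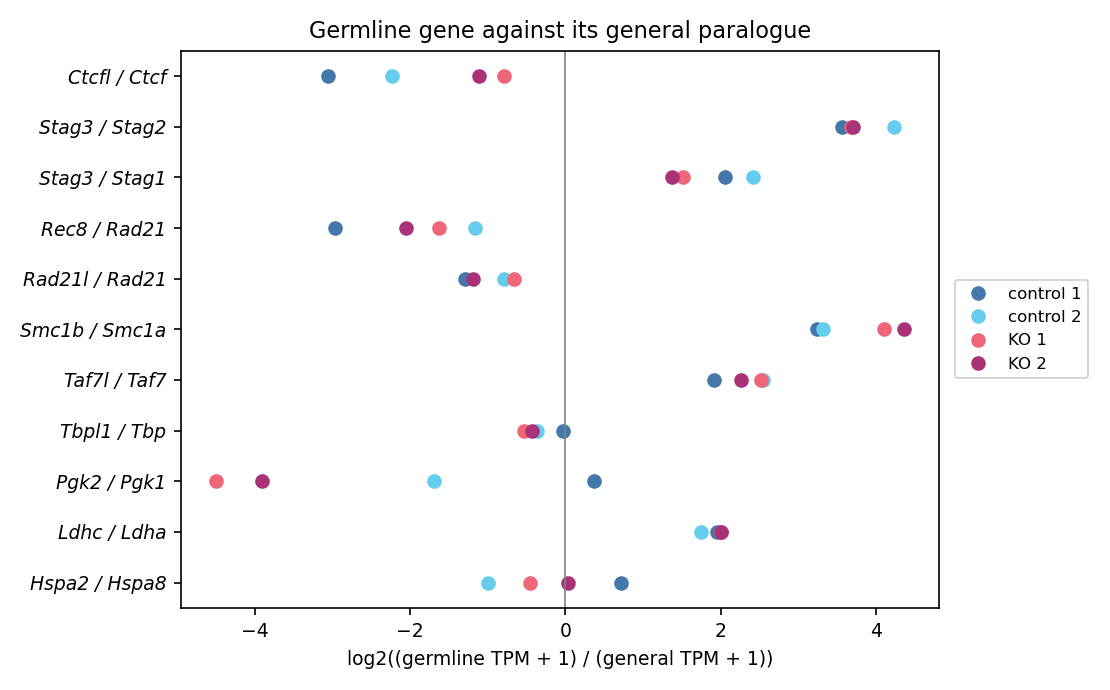
Log2 ratio of TPM + 1 of a germline gene to its general paralogue, for 11 pairs, with a point for each library. The ratio of *Ctcfl* to *Ctcf* is -3.06 and -2.23 in the controls and -0.79 and -1.11 in the KO libraries, and *Pgk2* to *Pgk1* moves the other way, from 0.37 and -1.70 to -4.51 and -3.91.

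The germline cohesin subunits themselves had group means that were higher in the KO libraries. *Smc1b* was at 232 and 165 TPM in controls 1 and 2, against 455 and 459 TPM (log2 difference 1.22, standard error 0.25, adjusted p = 0.31 from limma). *Stag3* was at 288 and 284 TPM in controls 1 and 2, against 354 and 333 TPM, a difference of 0.26 that went to -0.06 with median-ratio scaling. *Rad21l* was at 24.8 and 36.2 TPM against 54.9 and 36.1 TPM. Neither *Rad21l* nor *Rec8* separated the groups. *Rec8*, whose locus carries the tag, was at 7.05 TPM in control 1, 27.9 TPM in control 2, 27.7 TPM in KO 1 and 19.4 TPM in KO 2, so that the controls differed more than the groups. Of the 14 general cohesin subunits and regulators, which include the loader NIPBL and the release factor WAPL, 10 had both KO libraries above both controls and 0 had both below, where 38.6% and 12.1% of all genes did, and the median log2 difference was 0.74, against 0.28 for all genes, and 0.42 with median-ratio scaling. *Stag1* was at 68.3 and 52.5 TPM in controls 1 and 2, against 124 and 129 TPM (difference 1.06, standard error 0.22). *Pds5a*, a regulator of cohesin release, was at 55.4 and 27.2 TPM against 85.5 and 85.7 TPM (difference 1.12, standard error 0.39, and 0.62 without control 2). These 2 of the 14 were at least 2-fold higher, where 8.98% of all genes were, a count that went to 0 with either median-ratio scaling or quantile normalization. None of these 14 genes passed the FDR, with adjusted p from 0.31 to 0.999 in limma, and 6 had an unadjusted p under 0.05 with a higher value, which 10.7% of all genes did.

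Partners of CTCF were examined as a list of 20 genes for proteins that bind it, share its sites or remodel nucleosomes there. In 19 of them both KO libraries were above both controls, and in the remaining one, *Ybx1*, both were below, where 38.6% and 12.1% of all genes were above and below. The median log2 difference was 0.53, beside 0.69 for *Ctcf* itself, and 0.21 with median-ratio scaling, which brought the median of all genes to about 0. *Top2b*, the topoisomerase found at loop anchors, was at 69.5 and 49.6 TPM in controls 1 and 2, against 147 and 138 TPM (difference 1.26, standard error 0.24). *Chd8*, a chromatin remodeller that binds CTCF, was at 49.3 and 36.8 TPM against 90.6 and 97.7 TPM (difference 1.12, standard error 0.23). These 2 of the 20 were at least 2-fold higher, where 8.98% of all genes were, and neither was with median-ratio scaling. *Ybx1*, which encodes a nucleic-acid-binding Y-box protein, was at 1245 and 993 TPM in controls 1 and 2, against 694 and 769 TPM (difference -0.61, standard error 0.26). None of the 20 passed the FDR (adjusted p 0.31 to 0.662 in limma), and 7 had an unadjusted p under 0.05, all with a higher value, which 10.7% of all genes had.

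Genes tied to CTCFL in earlier work showed no common direction. The list held 3 genes for reported partners, *Prmt7*, *Bag6* and *Setd1a*, and 3 genes reported to depend on CTCFL in testis, *Gal3st1*, *Prss50* and *Stra8*. *Setd1a*, a histone H3 lysine methyltransferase gene, was at 67.2 and 53.7 TPM in controls 1 and 2, against 121 and 120 TPM in KO 1 and 2 (difference 1.00, standard error 0.20). *Prss50*, a testis protease gene, was at 147 and 386 TPM in controls 1 and 2, against 523 and 411 TPM (difference 0.96, standard error 0.52). In both, the groups did not overlap, but the upper control in *Prss50* lay close to the lower KO library, and its difference was 0.26 without control 1 and 1.65 without control 2. *Gal3st1*, which encodes the sulfotransferase for the sulfoglycolipid of sperm, was at 12.8 and 41.2 TPM in controls 1 and 2, against 42.4 and 34.0 TPM. *Stra8*, the gatekeeper of meiotic entry and also a marker of preleptotene cells, was at 69.0 and 189 TPM against 217 and 103 TPM. Both overlapped between groups, and without control 1 the differences of *Gal3st1* and *Stra8* turned to -0.12 and -0.34, and without KO 1 that of *Stra8* to -0.15. *Bag6*, for a chaperone of the ubiquitin pathway, was at 346 and 233 TPM against 218 and 220 TPM (difference -0.38), and *Prmt7*, an arginine methyltransferase gene, was at 110 and 141 TPM against 102 and 113 TPM (difference -0.22). In this list of 6, 2 genes had both KO libraries above both controls and 1 had both below, where 38.6% and 12.1% of all genes did. The median of the list, 0.54, turned to -0.10 without control 1. None of the 6 passed the FDR (adjusted p 0.31 to 0.797 in limma). An unadjusted p under 0.05 was found in 1, *Setd1a*, with a higher value, and in 10.7% of all genes with a higher value.

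Imprinted genes, several of which lie at loci where CTCF binds the control region on one parental allele, were listed as 14 genes. In 6 of them both KO libraries were above both controls and in 0 both were below, a share near that of all genes for the first (38.6%, with 12.1% below). At least 2-fold higher were 5 of the 14, against 8.98% of all genes. *Grb10*, a growth-factor-receptor adaptor gene, was at 44.9 and 16.9 TPM in controls 1 and 2, against 109 and 138 TPM (difference 2.11, standard error 0.51). *Peg3* was at 9.69 and 3.33 TPM against 20.7 and 18.9 TPM (difference 1.61), and *Peg10* at 11.8 and 14.02 TPM against 39.7 and 28.6 TPM (difference 1.32). These are both paternally expressed genes. *Cdkn1c*, a cell cycle inhibitor gene, was at 5.66 and 9.46 TPM against 19.8 and 15.7 TPM (difference 1.16), and *Kcnq1ot1*, the antisense RNA of the same imprinted domain, at 1.44 and 0.83 TPM against 3.45 and 4.20 TPM (difference 1.19). The 2 genes of the best-known CTCF insulator, *H19* at 5 and 12.5 TPM against 7.82 and 6.22 TPM and *Igf2* at 9.51 and 3.48 TPM against 8.00 and 7.96 TPM, overlapped between the groups. The median of the 14 was 0.42. With median-ratio scaling it was 0.13, and 3 of the 14 were at least 2-fold higher, where 613 of 14512 genes were. Without control 1 the median was 0.94, against 0.445 for all genes. In that setting 7 of the 14 were at least 2-fold higher and 1 lower, where 3476 and 593 of 14222 genes were. None of the 14 passed the FDR (adjusted p 0.31 to 0.997 in limma). An unadjusted p under 0.05 with a higher value was found in 5, and in 10.7% of all genes.

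**Figure D3:**
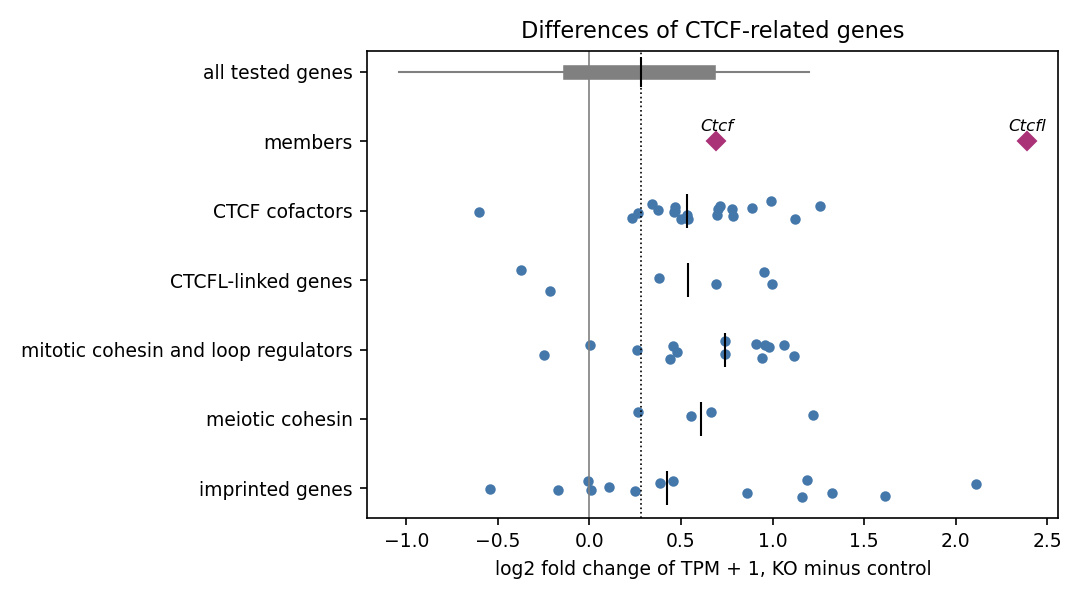
Log2 fold change of TPM + 1 (libraries labelled *Zfp541* KO minus controls) for *Ctcf* and *Ctcfl* (diamonds), for each tested member of 5 gene lists (points, black tick at the median, vertical jitter only to separate points) and for all 14512 tested genes (grey, 5th to 95th percentile as a line, quartiles as a bar). *Ctcfl*, chosen for this difference, lies at 2.39 beyond every listed gene. The list medians, from 0.42 to 0.74, lie to the right of the all-gene median of 0.28.

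At the *Ctcfl* locus, the genes on either side did not all follow its direction. *Ctcflos*, a non-coding RNA gene on the opposite strand, was at 0.99 and 0.74 TPM in controls 1 and 2, against 2.96 and 2.52 TPM (log2 difference 1.00, standard error 0.38). RefSeq starts *Ctcflos* 5.22 kb beyond the start of *Ctcfl*, while GENCODE lets it overlap *Ctcfl*, where its exons cover 171 bases (5.32%) of the *Ctcfl* transcript. The study's methods do not say whether the library kit kept the strand. Without it, reads from those exons cannot be told apart. *Ctcflos* stayed below 3 TPM in each library, well under *Ctcfl* in the KO libraries. *Pck1*, the gene for the key enzyme of gluconeogenesis, is the next listed gene on this side and was at 0.38 and 0.71 TPM against 2.16 and 2.53 TPM. On the other side, *Rbm38* was at 47.9 and 99.2 TPM against 142 and 121 TPM, and *Rae1* at 183 and 258 TPM against 297 and 279 TPM. *Spo11*, which makes the meiotic double-strand breaks and lies 100 kb from *Ctcfl*, was at 95.1 and 66.9 TPM in controls 1 and 2, against 64.2 and 79.6 TPM, with overlap. The farthest of the 10 neighbours on the side of *Pck1*, *1700021F07Rik*, was lower in both KO libraries, at 48.4 and 38.5 TPM against 1.16 and 5.05 TPM. Of the 10 listed neighbours of *Ctcfl*, 9 averaged 1 TPM or more, and of these 4 had both KO libraries above both controls and 1 had both below, against 38.6% and 12.1% of all genes.

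Around *Ctcf*, 8 of 10 listed neighbours averaged 1 TPM or more, and of these 3 had both KO libraries above both controls and 4 had both below, against 38.6% and 12.1% of all genes. The nearest on the side of its last exon, *Carmil2*, was at 1.58 and 2.46 TPM against 1.44 and 1.03 TPM. *Acd*, a gene of the telomere-capping shelterin complex 15.2 kb away, was at 60.6 and 69.4 TPM against 53.2 and 56.0 TPM, and *Pard6a*, a cell polarity gene, at 34.1 and 42.9 TPM against 23.3 and 25.9 TPM. *Enkd1* was at 152 and 127 TPM against 170 and 178 TPM, a difference of 0.32 that went to about 0 (-0.004) with median-ratio scaling. Upstream, *Ripor1*, listed as *Fam65a*, was at 17.5 and 10.5 TPM against 20.5 and 19.7 TPM. *Carmil2*, *Acd* and *Pard6a*, the first genes past the end of *Ctcf*, thus lay in the opposite direction.

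**Figure D4:**
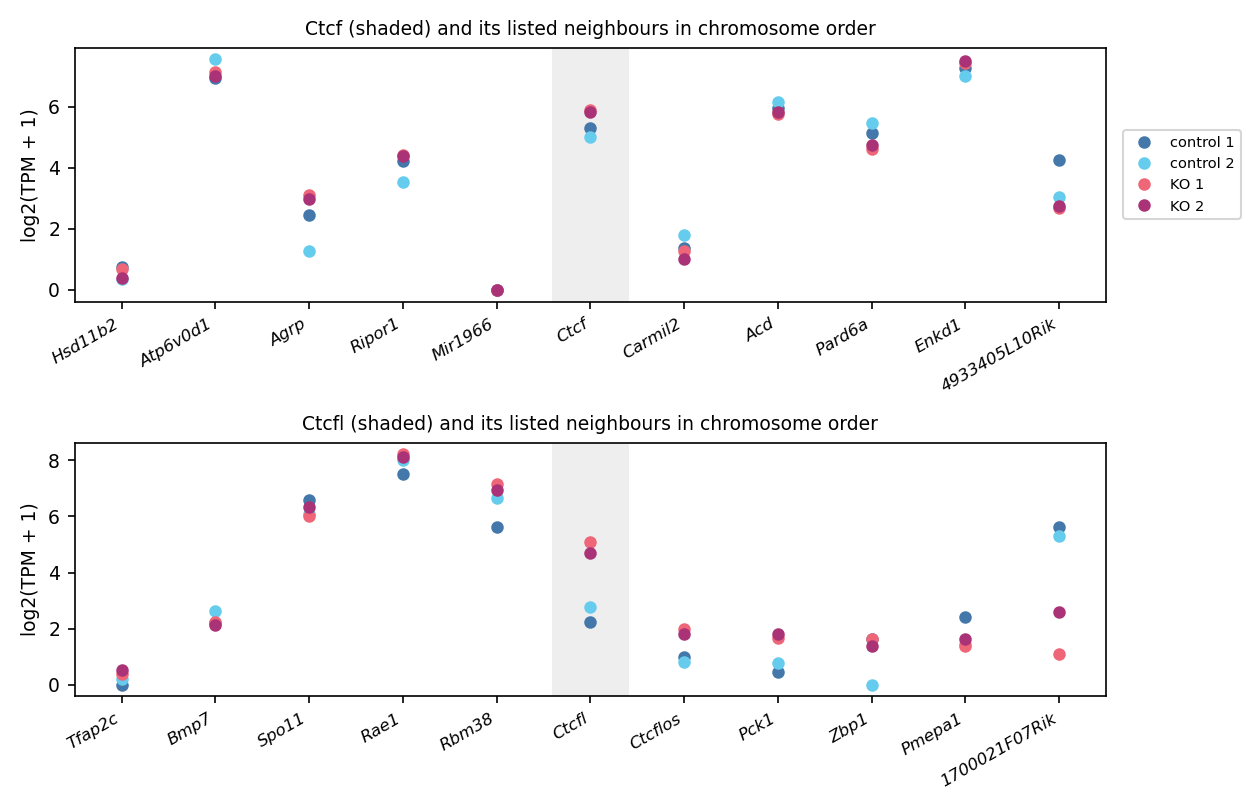
Log2(TPM + 1) of *Ctcf*, *Ctcfl* (shaded) and the 5 nearest listed genes on each side, in chromosome order and not to scale in distance, with a point for each library. *Ctcfl*, chosen for its difference, separates the groups by more than its neighbours do, except for *1700021F07Rik*, which is lower in the KO libraries.

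By pattern over the 4 libraries, the genes nearest to each paralogue were found as those with the smallest Euclidean distance between log2(TPM + 1) profiles centred on their means, among 14512 genes. Those nearest to *Ctcfl* were *Sco2* (distance 0.21), *Wfs1* (0.36), *Mir1291* (0.40), *Mir8102* (0.54) and *Tshb* (0.56). Of these, *Wfs1*, the gene for the endoplasmic reticulum membrane protein wolframin, was at 3.31 and 3.49 TPM in controls 1 and 2, against 22.4 and 19.3 TPM, and *Sco2*, a gene for cytochrome c oxidase assembly, was listed at 0 and at 0.46 TPM against 5.27 and 3.79 TPM. Both microRNA rows were listed at 0 in both controls. The genes nearest to *Ctcf* were far closer, namely *Amot* (distance 0.02), *Rab5a* (0.022), *5031439G07Rik* (0.026), *Rbbp5* (0.029) and *Tube1* (0.03), and *Rab5a*, an early endosome GTPase gene, was at 53.2 and 42.2 TPM in controls 1 and 2, against 78.7 and 74.9 TPM. The median distance over all 14512 genes was also smaller from *Ctcf* (0.8) than from *Ctcfl* (2.31). The paralogues themselves were 1.81 apart, with 2092 genes nearer to *Ctcfl* than *Ctcf* was, and 12880 nearer to *Ctcf* than *Ctcfl* was.

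The cell types held by the libraries were read from marker lists, and the summed TPM of each list is set beside the 2 genes since in bulk samples fewer cells of a type cannot be told apart from less RNA per cell. Markers of undifferentiated spermatogonia (10 genes) summed to 298 and 670 TPM in controls 1 and 2, against 432 and 404 TPM, and those of differentiating spermatogonia and preleptotene cells (8 genes) to 588 and 647 TPM against 693 and 535 TPM. In neither list did the sums separate the groups. Leptotene and zygotene markers (10 genes) summed to 1420 and 2050 TPM in controls 1 and 2, against 2970 and 3100 TPM. These sums shared the group direction of *Ctcfl*, but within the KO group *Ctcfl* was higher in KO 1 and the sum in KO 2. In 8 of the 10 both KO libraries were above both controls, against 38.6% of all genes. Pachytene markers (10 genes) summed to 7110 and 3280 TPM in controls 1 and 2, against 2510 and 3490 TPM, where control 1 stood apart. In 5 of these 10 genes both KO libraries were below both controls, against 12.1% of all genes, and the same number were at least 2-fold lower, against 5.22%. The median log2 difference of the list was -0.95. Without control 1 it was -0.65, with 2 genes at least 2-fold lower and 1 higher, where 593 and 3476 of 14222 genes were. The largest fall of the list was in *Pgk2*, a glycolytic enzyme gene of meiotic and later cells. It was at 79.0 TPM in control 1, 18.4 TPM in control 2, 1.59 TPM in KO 1 and 2.71 TPM in KO 2. In 1 of the 10, *Mybl1*, both KO libraries were above both controls, against 38.6% of all genes. It was at 70.3 and 38.3 TPM in controls 1 and 2, against 81.5 and 98.1 TPM. The part of these markers in the result was not tested. The pachytene marker *Hist1h1t* was at 1.00 to 2.55 TPM in all libraries. The study described the sorted GFP-positive cells as enriched for pachytene spermatocytes positive for H1t, the protein of this gene. This RNA value does not measure their share.

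Both genes were also divided by the sum of each of the 4 germ cell lists up to pachytene, scales chosen after the values were seen. A few abundant markers can make up most of such a sum, so the quotients are not levels per cell of a type. *Uchl1* gave 559 of 670 TPM of the undifferentiated sum in control 2, and *Ldhc* 3659 of 7110 TPM of the pachytene sum in control 1. In KO 1, *Hormad1* (1145 TPM) and *Sycp1* (895 TPM) gave most of the 2970 TPM of leptotene and zygotene markers. On the leptotene and zygotene scale, *Ctcfl* was at 2.65 and 2.84 per 1000 TPM of markers in the controls and 11.2 and 8.11 in the KO libraries, a ratio of means of 3.51. *Ctcf* on the same scale was at 27.2 and 15.2 in the controls and 19.6 and 17.8 in the KO libraries, and the groups overlapped. Per 1000 TPM of the undifferentiated spermatogonial markers, *Ctcfl* was at 12.6 and 8.70 in the controls and 76.6 and 62.1 in the KO libraries. *Ctcf* on that scale was at 129 and 46.4 in the controls and 134 and 136 in the KO libraries. The ratio of means on the undifferentiated, preleptotene and pachytene scales was 6.51, 6.15 and 8.83 for *Ctcfl* and 1.54, 1.65 and 2.61 for *Ctcf*, without overlap on any of these 3.

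Markers of somatic cells differed among the libraries, and their part in the result was not tested. Macrophage markers (*Cd68*, *Adgre1*, *Csf1r* and *Lyz2*) summed to 1570 TPM in control 1 but 15.2 TPM in control 2, and to 1290 and 924 TPM in the KO libraries. Leydig cell markers (6 genes) summed to 2910 and 18.0 TPM in controls 1 and 2, against 331 and 504 TPM, and Sertoli cell markers (8 genes) to 808 and 717 TPM against 1080 and 762 TPM. Myoid cell markers (4 genes) stayed at 12.2 to 23.9 TPM, and red blood cell markers (4 genes, of which 1 or 2 were at 0 in each library) at 18.8 to 275 TPM. Of the 8 round spermatid markers, 1 to 5 were at 0 in each library. Their sums were 17.6 and 18.3 TPM in controls 1 and 2, against 31.0 and 32.3 TPM. Among them *Spaca1* was at 7.34 and 13.9 TPM against 27.0 and 26.6 TPM. *Lhcgr*, the receptor gene of Leydig cells, was listed at 0 in control 2. The log2 difference of *Ctcfl* was 2.13 without control 1 and 2.65 without control 2.

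**Figure D5:**
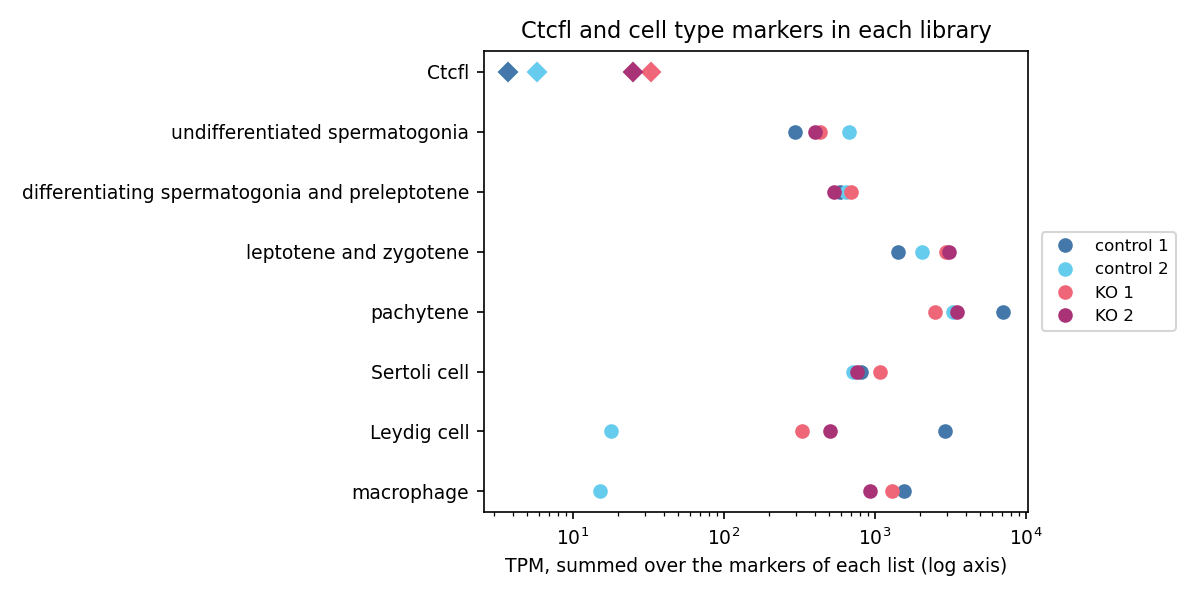
TPM of *Ctcfl* (diamonds) and summed TPM of 7 marker lists (circles) in each library, on a log axis. The controls lie at 3.75 and 5.83 TPM in *Ctcfl* and at 1570 and 15.2 TPM in macrophage markers, and leptotene and zygotene markers separate the groups.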

How the data were processed

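RNA-seq of 4 libraries (single-end reads of 75 nt) was used. The authors trimmed reads with Trim Galore 0.5.0 (cutadapt 1.16), aligned them to UCSC mm10 with STAR 2.6.0a and estimated expression with RSEM 1.3.1, and deposited TPM per gene. Depth cannot be read from TPM, so no interval for counting error was given. Row names that spreadsheets had turned into dates (27) were not used.

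Log2(TPM + 1) of genes averaging 1 TPM or more was fitted by genotype with limma 3.58.1 (R 4.3.3) using its variance trend, p-values were adjusted by Benjamini and Hochberg over all genes kept (FDR 0.05), after the fit was tested on simulated data. Replicate numbers were not used as pairs, since nothing in the labels ties them (correlation of same-numbered deviations -0.16). The study's own differential test in RSEM was not repeated. The genes and lists were chosen with earlier results of these data known. Named were both paralogues, all meiotic cohesin and CTCFL-linked genes, members of lists at least 2-fold apart without overlap (else the largest rise and fall), the 5 nearest patterns, the 5 listed neighbours on each side in RefSeq (GRCm38.p6), and 10 paralogue pairs (*Stag3* to *Stag1* was added later), with further pairs not reported here. *Ybx1*, *H19*, *Igf2* and *Hist1h1t* were named after their values were seen. So were *Pgk2*, *Mybl1*, *Uchl1*, *Ldhc*, *Hormad1*, *Sycp1* and *Spaca1* as markers. Alternatives covered the pseudocount, filter, scaling, variance trend, replicate block and each library left out. The crossed block was added after the data were seen. Transcripts came from GENCODE M21. ChIP-seq was not used here.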

Additional observations from a re-analysis of the deposited data

How the results depend on the processing

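*Ctcfl*, *Ctcf* and their log2 ratio kept their direction in every alternative run. Without 1 library, *Ctcfl* ranged from 2.13 to 2.65, *Ctcf* from 0.54 to 0.84 and the ratio from 1.28 to 2.11. A pseudocount of 5 moved *Ctcfl* to 1.80 and the ratio to 1.16, and *Ctcf* went to 0.38 with median-ratio scaling and 0.43 after quantile normalization. Depth is unknown, which limits what the low TPM of *Ctcfl* in the controls can show.

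No gene passed the FDR with the replicate block (0 genes), with another pseudocount, scaling or variance model, or at a mean of at least 5 TPM. Deviations of same-numbered libraries correlated at -0.16 across genes, which with 2 libraries per group cannot decide whether they were paired. The replicate block left *Ctcfl* at 2.39, *Ctcf* at 0.69 and the ratio at 1.70. With the numbers crossed, 87 genes passed, and without a filter 2 did, *Platr8* and *Slc26a9*, both under 0.3 TPM in all libraries. Without 1 library the count ranged from 0 to 7222. It was 7222 without control 1 and 4381 without control 2, fits in which the lone control is assumed to vary as little as the KO libraries.

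Genes at least 2-fold apart numbered 2060, and 977 with a pseudocount of 5, and ranged from 2085 to 4069 without 1 library. Those higher numbered 1303, and 2063 and 513 with pseudocounts of 0.1 and 5, 613 when scaled by the median ratio and 707 after quantile normalization, with a range of 826 to 3476 without 1 library (3476 without control 1, 826 without control 2). Those lower numbered 757, and 464 with a pseudocount of 5, and ranged from 593 to 1681 (1681 without control 2). Genes higher thus made up 63.3% of those apart, but 35.1% when scaled by the median ratio and 41% after quantile normalization. The 2 scalings lowered the median difference over all genes from 0.284 to -0.0044 and 0.090.

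*Stag3* was at -0.061 and *Enkd1* at -0.0040 with median-ratio scaling. Without 1 library the CTCFL-linked median ranged from -0.10 to 0.97, *Gal3st1* from -0.12 to 1.50, *Stra8* from -0.34 to 1.10, *Rec8* from -0.25 to 1.59 and *Spo11* from -0.41 to 0.093. For these the cause was not tested.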

Other observations

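Among the other pairs of a germline gene and its general paralogue, the shifts went both ways. The log2 ratio of *Pgk2* to *Pgk1*, phosphoglycerate kinases of which the first is made from meiosis onward, was 0.37 in control 1 and -1.70 in control 2, against -4.51 and -3.91 in KO 1 and KO 2, a difference of -3.55 against 2.07 between the controls. The ratio of *Tbpl1* to *Tbp*, which encode a relative of the TATA-binding protein and that protein itself, was lower in both KO libraries (difference -0.29), that of *Ldhc* to *Ldha* was higher by 0.15, and those of *Taf7l* to *Taf7* (0.15) and *Hspa2* to *Hspa8* (-0.07) overlapped. In size, the shift of *Ctcfl* to *Ctcf*, at 1.70, was the second of the 11 pairs given here. Its place follows in part from the choice of this pair for the difference of *Ctcfl*. None of these differences was tested.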
